A study of Homo sapiens with 6 samples.

Results

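The genes described here are 10 noncoding host genes of small nucleolar RNAs (snoRNAs): SNHG1, SNHG5, SNHG6, SNHG7, SNHG8, SNHG12, SNHG15, SNHG16, GAS5 and EPB41L4A-AS1. They were chosen by name, with earlier results of these data known, as spliced transcripts that carry snoRNAs in their introns. All 10 were among the 28008 genes of the count table. Transcripts were counted by RNA-Seq in DU-145-DR/tet-MUC1shRNA cells, a human prostate cancer line selected for resistance to docetaxel (DTX) and transduced with a doxycycline-inducible hairpin against MUC1. The DOX-negative group (3 libraries) received DMSO vehicle and the DOX-positive group (3 libraries) received 500 ng/ml doxycycline (DOX) for a week. Both groups were taken as the same DTX-resistant, hairpin-carrying cells from the titles and the study, although among the treatment labels only those of the DOX-positive samples mention the hairpin. No library of a control hairpin with DOX was analysed here, so silencing of MUC1 and exposure to DOX cannot be told apart.

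A snoRNA host gene is transcribed and spliced like a messenger RNA gene. The excised introns are trimmed to snoRNAs, which guide the methylation and pseudouridylation of ribosomal RNA, while the spliced exons are exported. In many hosts the exons start with a tract of pyrimidines (a 5′ terminal oligopyrimidine, or 5′TOP, start, as in ribosomal protein mRNAs), engage ribosomes at short reading frames and are removed by nonsense-mediated decay (NMD). Levels of spliced host RNA such as GAS5, named for its accumulation in growth-arrested cells, are therefore known to depend on decay and translation as well as on transcription.

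Libraries held between 15092691 and 23243713 counts. Levels are given as CPM, the count of a gene relative to the total of its library after scaling with TMM factors, and 3 counts corresponded to between 0.129 and 0.199 CPM, a limit that covers counting error only. MUC1, the target of the hairpin, fell from 21.9 ± 2.58 CPM to 3.86 ± 0.585 CPM (SD, n = 3 per group; log2 fold change -2.52, edgeR adjusted p = 4.471e-11). The epithelial markers EPCAM, KRT8, KRT18 and CDH1 were expressed in every library and were higher in the DOX-positive group, with log2 fold changes of 1.43, 0.84, 0.81 and 0.92. KLK3, a marker of luminal prostate cells, had 0 counts in all 6 libraries. PTPRC, CD3E, CD14, PECAM1, CDH5, PDGFRB and DCN, markers of white blood cells, endothelium and fibroblasts, had at most 17 counts in a library. COL1A1 had between 66 and 96 counts. In bulk RNA, fewer cells with a transcript and less of it per cell cannot be told apart.

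Of the 10 host genes, 4 rose with DOX, 0 fell and 6 did not pass the test, an edgeR quasi-likelihood test with a Benjamini-Hochberg adjusted p under 0.05 over the 14292 genes tested. Among all genes tested, 13.0% rose, 13.7% fell and 26.7% were called in either direction. SNHG1 rose by the most, followed by SNHG8, SNHG15 and GAS5. The log2 fold change was above 0 in 8 of the 10, with a median of 0.21, beside a median of -0.0034 over all genes tested. The CPM values of the groups did not overlap in 5 of the 10 (SNHG1, SNHG8, SNHG15, GAS5 and SNHG16), beside 39.8% of all genes tested.

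**Figure D1:**
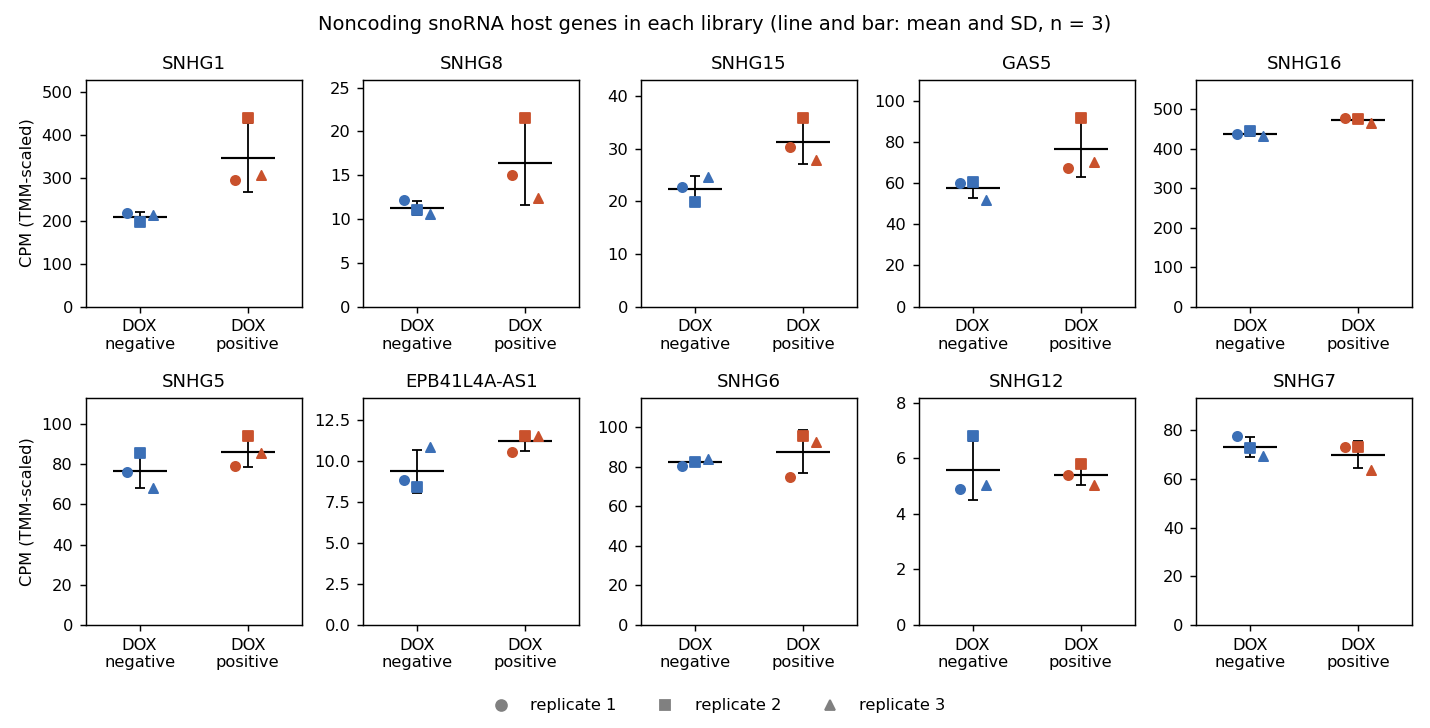
CPM (TMM-scaled, vertical axes from 0) of the 10 host genes in the 3 DOX-negative (blue) and 3 DOX-positive (orange) libraries, with symbols for replicate numbers and black lines and bars for mean and SD. SNHG1, SNHG8, SNHG15, GAS5 and SNHG16 show no overlap between the groups, and DOX-positive replicate 2 (square) stands highest in SNHG1, SNHG8, SNHG15, GAS5, SNHG5 and SNHG6.

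SNHG1, which lies on chromosome 11 (GRCh38, chr11:62851978-62855885) and carries 8 box C/D snoRNAs, measured 217.09, 198.01 and 214.08 CPM in the DOX-negative libraries and 294.97, 440.42 and 306.3 CPM in the DOX-positive libraries. The lowest DOX-positive library lay above the highest DOX-negative library, and DOX-positive replicate 2 stood well above the others of its group. The group means were 210 ± 10.3 and 347 ± 80.9 CPM (SD, n = 3), a 1.656-fold rise (95% interval 1.442 to 1.902; log2 0.73, SE 0.102, edgeR adjusted p = 1.423e-05). Without DOX-positive replicate 2 the log2 fold change was 0.52 (edgeR adjusted p = 2e-06).

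SNHG8 (chr4:118278762-118279823), host of SNORA24, was a low-count member at 12.165, 10.995 and 10.597 CPM without DOX and 14.99, 21.574 and 12.438 CPM with DOX. The groups did not overlap, but DOX-positive replicate 3 lay just above DOX-negative replicate 1. The rise was 1.459-fold (95% interval 1.182 to 1.801; log2 0.55, SE 0.155, edgeR adjusted p = 0.01165). This call rested on DOX-positive replicate 2: without it, the log2 fold change was 0.30 and did not pass (edgeR adjusted p = 0.11).

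SNHG15 (chr7:44983023-44986696), host of SNORA9, measured 22.733, 19.944 and 24.627 CPM in DOX-negative libraries and 30.242, 35.94 and 27.834 CPM in DOX-positive libraries. All 3 DOX-positive values were above all 3 DOX-negative values. The mean went from 22.4 ± 2.36 to 31.3 ± 4.16 CPM (SD, n = 3), a 1.399-fold rise (95% interval 1.208 to 1.62; log2 0.48, SE 0.108, edgeR adjusted p = 0.001833). The log2 fold change was 0.37 without DOX-positive replicate 2 (edgeR adjusted p = 0.0105).

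GAS5 (chr1:173863901-173869045), host of 10 box C/D snoRNAs, measured 60.327, 60.394 and 51.841 CPM without DOX and 67.37, 91.94 and 70.122 CPM with DOX. The groups were again separate, with DOX-positive replicate 2 the highest library. GAS5 rose 1.33-fold (95% interval 1.163 to 1.522; log2 0.41, SE 0.099, edgeR adjusted p = 0.003512), and by 0.26 on the log2 scale without DOX-positive replicate 2 (edgeR adjusted p = 0.0256).

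SNHG16 (chr17:76557764-76565348), which carries SNORD1A, SNORD1B and SNORD1C, had the most counts of the 10, at 436.6, 444.13 and 432.93 CPM without DOX and 479.08, 475.47 and 464.36 CPM with DOX. Its replicates lay within a few percent of each other and the groups did not overlap. The fold was 1.08 (95% interval 0.9984 to 1.169), which did not pass the test (edgeR adjusted p = 0.1656).

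SNHG5 (chr6:85677007-85678733), host of SNORD50A and SNORD50B, measured 76.18, 85.707 and 68.408 CPM without DOX and 79.135, 94.029 and 85.383 CPM with DOX, with overlapping groups. Its fold of 1.122 (95% interval 1 to 1.259) did not pass the test (edgeR adjusted p = 0.1552). The result turned on DOX-negative replicate 2, the highest library of its group: without it the log2 fold change was 0.25 and passed (edgeR adjusted p = 0.03607). EPB41L4A-AS1 (chr5:112160526-112162501), host of SNORA13, measured 8.8069, 8.3866 and 10.846 CPM without DOX and 10.502, 11.492 and 11.496 CPM with DOX. DOX-negative replicate 3 lay inside the DOX-positive range, and the fold of 1.191 (95% interval 0.9884 to 1.435) did not pass (edgeR adjusted p = 0.1851).

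The remaining 3 hosts showed the smallest differences. SNHG6 (chromosome 8), host of SNORD87, measured 80.143, 82.229 and 84.079 CPM without DOX and 74.996, 95.492 and 92.375 CPM with DOX, so the DOX-positive libraries lay on both sides of the DOX-negative ones. Its fold was 1.065 (95% interval 0.9523 to 1.19; edgeR adjusted p = 0.4557). SNHG7 (chr9:136724594-136728184), which carries SNORA17A and SNORA17B, measured 77.611, 72.667 and 69.502 CPM without DOX and 73.253, 73.238 and 63.533 CPM with DOX. The ranges overlapped, at a fold of 0.9574 (95% interval 0.8616 to 1.064; edgeR adjusted p = 0.5984). SNHG12 (chr1:28578538-28582983), host of SNORA61, SNORA16A, SNORA44 and SNORD99, was the lowest member at 4.8988, 6.8013 and 5.0248 CPM without DOX and 5.4035, 5.7985 and 5.0423 CPM with DOX. All 3 of its DOX-positive values fell within the DOX-negative range, and its fold of 0.9727 had the widest interval of these 3 (0.7624 to 1.241; edgeR adjusted p = 0.9001).

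Summed over the 10 hosts, the level was 996.56, 989.26 and 971.94 CPM in the DOX-negative libraries and 1129.9, 1345.4 and 1138.9 CPM in the DOX-positive libraries, without overlap. The mean of the sum was 1.222 times as high with DOX. SNHG1 supplied much of this difference: without SNHG1 the ratio was 1.105, and without SNHG16, the member with the most counts, it was 1.335.

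The size and the calls depended on the scale. In the deposited TPM values, 5 short noncoding RNAs took between 34.4% and 64.4% of a library, least in DOX-negative replicate 2, which left more of the TPM to every other gene in that library. On log2(TPM + 1) the median of all genes fell by 0.32 with DOX, 0 hosts passed the test, and the direction flipped to below 0 for SNHG5, SNHG6, SNHG16 and EPB41L4A-AS1. Relative to that median, SNHG1, SNHG8, SNHG15 and GAS5 stood at 0.63, 0.43, 0.41 and 0.33 on the log2 scale. TPM was also rescaled to the same total per library after the 5 short RNAs were left out. On this rescaled TPM 3 of these 4 hosts passed in limma, while SNHG8 did not (adjusted p = 0.0565).

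Per length, the order of the levels differed from the order in CPM. In deposited TPM, SNHG6 had the highest mean log2 level, followed by SNHG5, SNHG1, SNHG16, GAS5, SNHG15, SNHG8, SNHG7, EPB41L4A-AS1 and SNHG12. In the DOX-negative libraries SNHG6 had 540.6, 760.3 and 415.5 TPM and SNHG12 had 3.359, 6.361 and 2.533 TPM. Each host lay above the next in all 6 libraries, except that SNHG5 lay above SNHG1 and SNHG16 above GAS5 in 5 of 6. Both exceptions came from DOX-positive replicate 2, where SNHG1 (529 TPM) ranked above SNHG6 (509.1 TPM) and GAS5 (264.7 TPM) above SNHG16 (211.3 TPM).

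A ratio of TPM within a library does not depend on what the short RNAs took. SNHG1 was 0.6091, 0.5391 and 0.5742 times SNHG6 without DOX and 0.8742, 1.039 and 0.7452 times SNHG6 with DOX, without overlap. GAS5 was 0.4061, 0.3952 and 0.3332 times SNHG6 without DOX and 0.4812, 0.5199 and 0.4093 times with DOX, where the closest values of the groups nearly met. The hosts therefore changed unequally, SNHG1 more than SNHG6 in each DOX-positive library relative to each DOX-negative library.

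**Figure D2:**
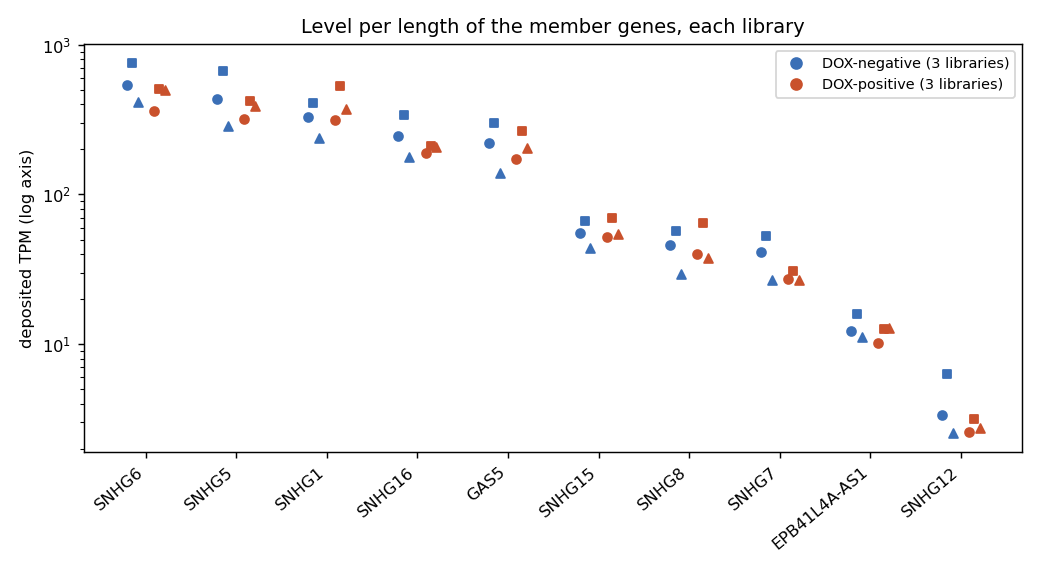
Deposited TPM (log axis) of the 10 hosts in each library, ordered by mean log2 TPM, with DOX-negative libraries in blue and DOX-positive libraries in orange and symbols for replicates 1 (circle), 2 (square) and 3 (triangle). The hosts span from 760.3 TPM for SNHG6 to 2.533 TPM for SNHG12, and DOX-negative replicate 2 lies high throughout that group.

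The snoRNAs themselves are short and lack a poly(A) tail, so these poly(A)-selected libraries hold few of their reads. Of 34 snoRNA names listed for the 10 hosts, 33 (all but SNORA43, listed for SNHG7) had a row in the count table and 30 had at least 1 count. Many of these snoRNAs overlap exons of host isoforms on the same strand in GENCODE 29, such as isoforms that keep an intron, and the counting rule is not given in the sources used here, so reads of snoRNA and host may be mixed. The values below are those of the deposited rows.

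None of the snoRNA rows passed the test as higher. Of the 17 rows tested, 0 rose and 2 fell, beside 13.0% and 13.7% of all genes tested. So few rows cannot set these counts apart from those shares. A log2 fold change below 0 was found in 12 of the 17, all of which had to pass the count filter. Among the other snoRNA and small Cajal body RNA rows, 60 of 105 tested were also below 0. Without the GAS5 rows, 6 of 11 hosted rows tested were below 0. Summed over the 33 rows, the level was 33.63, 31.96 and 31.14 CPM without DOX and 27.28, 25.13 and 27.23 CPM with DOX, without overlap. All other snoRNA and small Cajal body RNA rows (535) summed to 401 ± 75.8 CPM in the DOX-negative group and 445 ± 10.3 CPM in the DOX-positive group (SD, n = 3), and the groups overlapped.

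The difference lay mostly in the rows hosted by GAS5. These 10 rows summed to 11.5, 11.25 and 11.89 CPM without DOX and 6.667, 6.948 and 8.404 CPM with DOX, which is lower in every DOX-positive library, while the spliced host GAS5 was higher in every DOX-positive library. The ratio of the group means was 0.6356, resting on between 125 and 239 counts a library. With 3 libraries against 3, an exact two-sided permutation test allows no p below 0.1, which is the value these sums gave. All 6 GAS5 snoRNAs that passed the filter had a log2 fold change below 0. The filter can be met through the DOX-negative group alone, so this shared sign is not separate evidence of a fall. SNORD78, for example, had 16, 10 and 13 counts without DOX and 1, 7 and 9 counts with DOX. SNORD80 fell from 6.11 ± 0.496 to 4.03 ± 0.991 CPM (SD, n = 3; counts of 103, 130 and 121 against 115, 58 and 60; log2 -0.59, SE 0.194, edgeR adjusted p = 0.02711), and it lost the call when any of 4 libraries was left out (DOX-negative replicates 2 and 3, DOX-positive replicates 2 and 3), with adjusted p up to 0.1101. SNORD44, SNORD78, SNORD47, SNORD76 and SNORD74 had log2 fold changes of -1.08, -1.12, -0.89, -0.79 and -0.30 and did not pass. Without SNORD80 the GAS5 rows summed to 5.835, 4.602 and 5.871 CPM without DOX and 1.656, 3.918 and 4.37 CPM with DOX, still apart. Without the GAS5 rows, the remaining hosted snoRNAs summed to 20.7 ± 1.44 and 19.2 ± 1.26 CPM, and the groups overlapped.

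The 8 rows hosted by SNHG1 summed to 12.27, 11.35 and 9.353 CPM without DOX and 12.59, 9.664 and 11.83 CPM with DOX. These overlapped (exact two-sided permutation p = 0.7), although SNHG1 itself had risen. Of the 6 SNHG1 rows tested, 2 had a log2 fold change below 0, the median was 0.24 and 0 passed the test. SNORA9, the snoRNA of SNHG15, had 2.297 ± 0.125 CPM without DOX and 2.275 ± 0.693 CPM with DOX. SNORD50B, carried by SNHG5, fell from 20, 24 and 27 counts to 7, 10 and 13 counts (log2 -1.18, SE 0.418, edgeR adjusted p = 0.04059), a call lost without any of 5 of the 6 libraries, all but DOX-positive replicate 3, with adjusted p up to 0.2081. The 4 rows of SNHG12 summed to 3.67 ± 0.324 and 2.81 ± 0.218 CPM, without overlap. The rows of SNHG16 (1.427 and 0.9521 CPM), SNHG6 (0.7936 and 0.7617 CPM), SNHG8 (0.1899 and 0.1249 CPM) and EPB41L4A-AS1 (0.0668 and 0.2733 CPM) overlapped between groups, and both listed rows of SNHG7 had 0 counts in every library.

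Set against the host in the same library, a ratio chosen after these values were seen, the GAS5 rows came to 19.07%, 18.63% and 22.94% of the CPM of GAS5 without DOX and 9.897%, 7.557% and 11.98% with DOX. For SNHG1 the shares were 5.654%, 5.733% and 4.369% without DOX and 4.269%, 2.194% and 3.863% with DOX, and SNORA9 went from 10.29% ± 0.867 to 7.16% ± 1.40 of the CPM of SNHG15 (SD, n = 3). The groups did not overlap in these 3 ratios, though those of SNHG1 nearly met, nor in that of SNHG5 (1.658% and 0.7441%). They overlapped for SNHG8, a host that rose (1.697% and 0.7266%), and for SNHG6 (0.9648% and 0.8828%), SNHG12 (68.01% and 52.07%), SNHG16 (0.3251% and 0.2009%) and EPB41L4A-AS1, where the mean was higher with DOX (0.662% and 2.39%). Each ratio has the host in its denominator, so a rise of the host alone lowers it.

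**Figure D3:**
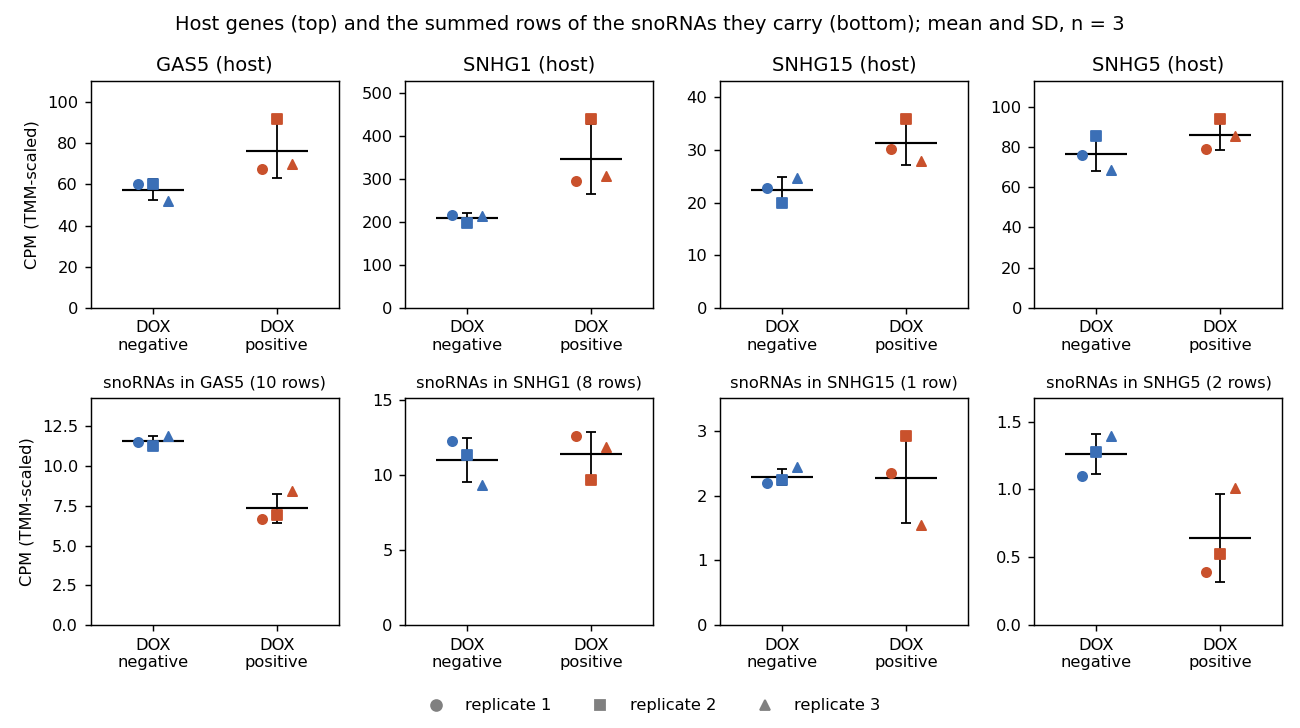
CPM (TMM-scaled, axes from 0) of GAS5, SNHG1, SNHG15 and SNHG5 in the top row and of the summed rows of the snoRNAs they carry in the bottom row, per library, with mean and SD (n = 3). GAS5 is higher with DOX while its 10 snoRNA rows are lower (11.5 ± 0.322 against 7.34 ± 0.932 CPM), and the snoRNA rows of SNHG1 and SNHG15 overlap between the groups.

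The start sites of the hosts are shown because the pyrimidine tract at the first base is the feature by which 5′TOP RNAs are recognised. RefSeq promoter sequences (GRCh38.p14) were found for 8 of the 10 hosts, not for SNHG6 and SNHG15. Each line gives 30 bases of the sense strand, from 10 bases before the annotated start (the 11th base is the start), and capitals mark a tract, defined as a C followed by at least 4 further C or T bases, that begins within 10 bases of the start. In SNHG12, where the base before the start is also a C, capitals begin at the start itself, and counted from the base before it the tract is 12 bases long.
SNHG12: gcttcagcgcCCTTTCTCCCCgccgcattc
SNHG5: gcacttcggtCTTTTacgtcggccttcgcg
SNHG16: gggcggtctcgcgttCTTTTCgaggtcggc
SNHG8: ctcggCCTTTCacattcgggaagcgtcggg
SNHG7: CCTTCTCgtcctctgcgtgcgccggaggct
SNHG1: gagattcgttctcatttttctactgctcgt
GAS5: tcatgaattcagatgtgtttattttggagc
EPB41L4A-AS1: tcatgaattctgtcgggtcccaaaatacgt
In the order of the lines above, these windows are chr1:28581854-28581883 (SNHG12, minus strand), chr6:85678714-85678743 (SNHG5, minus), chr17:76557754-76557783 (SNHG16, plus), chr4:118278752-118278781 (SNHG8, plus), chr9:136728165-136728194 (SNHG7, minus), chr11:62855866-62855895 (SNHG1, minus), chr1:173869026-173869055 (GAS5, minus) and chr5:112160516-112160545 (EPB41L4A-AS1, plus).

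The tract began exactly at the annotated start in 2 of the 8 (SNHG12 and SNHG5), beside 4.07% of the 35116 promoters of the table and 68.3% of 63 ribosomal protein promoters. Within 10 bases on either side it began in 5 of the 8, beside 33.5% of all promoters and 88.9% of ribosomal protein promoters. The RefSeq windows of GAS5 and SNHG1, 2 of the hosts that rose, held no such tract, but the result depended on which start was read. GENCODE 29 transcript starts were read for the 8 hosts only, with no share over all genes to set beside them. A host with many transcripts has more starts that can hold a tract. There, 6 of the 8 hosts had a transcript whose first base opens a tract, and for GAS5, SNHG1, SNHG16 and SNHG8 this was not the RefSeq start. Such transcripts were 6 of 29 for GAS5 and 1 of 25 for SNHG1, and the first 30 bases of those transcripts follow, with the tract in capitals.
GAS5: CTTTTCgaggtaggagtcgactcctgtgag
SNHG1: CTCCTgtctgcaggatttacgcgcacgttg
SNHG16: CTTTTCgaggtcggccgcgtggctggaaga
SNHG8: CTTTCacattcgggaagcgtcgggattagg
Hosts with such a start were found among those that rose (SNHG1, SNHG8 and GAS5) and among those that did not pass the test (SNHG5, SNHG12 and SNHG16). The E-box CACGTG, the core motif bound by MYC family factors and its own reverse complement, was present once in the 300-base promoter of SNHG7 and in no other of the 8, beside 7.26% of all promoters. A match is a description of the letters and shows no binding, and the absence of a match says only that these letters are not in the window.

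The 7 genes in the count table that face or overlap the hosts on the opposite strand did not pass the edgeR test. Over all genes tested 26.7% were called, and so few neighbours cannot be set apart from that share. AC015802.4 and AC015802.6, which face or overlap SNHG16, were not in the count table. SLC3A2, which encodes an amino acid transporter heavy chain and starts 188 bases from SNHG1, measured 167.94, 174.69 and 160.35 CPM without DOX and 186.07, 165.33 and 172.25 CPM with DOX. Its log2 fold change was 0.06 ± 0.0658 (SE) and its edgeR adjusted p was 0.5571. ZBTB37, a zinc finger gene with a start 74 bases from a GAS5 start, had a log2 fold change of -0.15 (edgeR adjusted p = 0.5567). Both neighbours overlapped between the groups, unlike the hosts beside them. GAS5-AS1, antisense to GAS5, had 18, 18 and 21 counts without DOX and 48, 29 and 19 counts with DOX, and its CPM did not overlap (log2 0.74, SE 0.335, edgeR adjusted p = 0.1065). On rescaled TPM it passed in limma (log2 0.60, adjusted p = 0.02048). The library kit marks strand, but whether the counting used it is not given in the sources used here, so reads of GAS5 in this row cannot be told apart from antisense reads. EPB41L4A (log2 0.18), MCMDC2 at SNHG6 (-0.17), TRNAU1AP at SNHG12 (-0.14) and FAM69B at SNHG7 (-0.14) did not pass either.

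Of 20 other noncoding snoRNA hosts listed, 19 were in the table and 16 were tested. Of these 1 rose and 1 fell (12.5%, beside 26.7% of all genes tested), with a median log2 fold change of 0.06. ZFAS1, host of the SNORD12 snoRNAs, measured 116.42, 127.44 and 95.174 CPM without DOX and 138.62, 190.2 and 152.95 CPM with DOX (log2 0.51, SE 0.101, edgeR adjusted p = 0.0006485), with its highest library again DOX-positive replicate 2. SNHG3 went the other way, from 68.199, 62.03 and 62.636 CPM to 61.53, 47.642 and 52.44 CPM (log2 -0.25, SE 0.088, edgeR adjusted p = 0.03763). The call of SNHG3 was lost in 7 of 17 alternative fits.

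**Figure D4:**
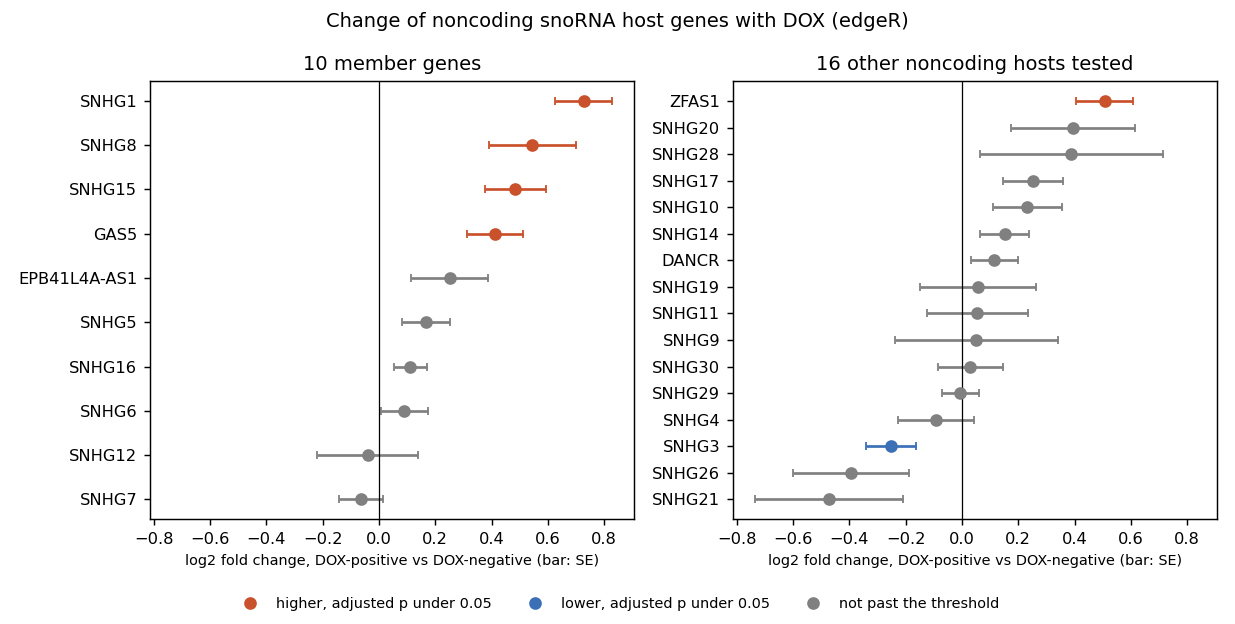
Log2 fold change with DOX (points) and its SE (bars) from edgeR for the 10 host genes (left) and the 16 other noncoding hosts tested (right), coloured by the call. SNHG1, SNHG8, SNHG15 and GAS5 lie above 0.4 at left, while at right ZFAS1 (0.51) and SNHG3 (-0.25) passed the test in opposite directions.

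Of 25 protein-coding genes that carry snoRNAs and were tested, 1 rose and 3 fell (16%, beside 26.7% of all genes tested), with a median log2 fold change of -0.03. HSPA9, a mitochondrial chaperone, rose by 0.28 (edgeR adjusted p = 0.001939), and the chaperone HSPA8 and the nuclear import receptor IPO7 had log2 fold changes of -0.32 and -0.23 (edgeR adjusted p = 0.01206 and 0.007869). HSPA8 did not pass with DESeq2 (adjusted p = 0.1558), nor without DOX-negative replicate 3, where its log2 fold change was -0.16 (edgeR adjusted p = 0.1074), nor without DOX-positive replicate 3 (0.06513). IPO7 did not pass without DOX-positive replicate 1 (edgeR adjusted p = 0.05414). EIF4A1 was listed at 0 counts in all libraries, and because the counting rule is not given, this row does not show that EIF4A1 was not expressed. Of 78 mRNAs of ribosomal proteins, the classical 5′TOP class, 1 rose and 8 fell (11.5%, beside the same 26.7%), with a median of -0.04. RPSA and RPL7 had log2 fold changes of -0.37 and -0.31, and RPL15 rose by 0.21 (edgeR adjusted p = 0.0006881, 0.0008861 and 0.01278), though reads of ribosomal protein genes can be shared with their pseudogenes.

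Genes that act on snoRNAs, on 5′TOP RNAs or in decay were read from lists. Of 18 snoRNP proteins and assembly factors tested, ZNHIT6, a box C/D assembly factor, rose by 0.38 and RPAP3, an assembly cofactor, had a log2 fold change of -0.39 (edgeR adjusted p = 0.0002366 and 0.0004562), with a median over the list of -0.07 and 11.1% called. Of 15 NMD factors tested, 0 rose and 3 fell (20%, beside 26.7% of all genes tested), with a median of -0.03. The largest falls in that list were SMG8, a regulator of the SMG1 kinase, at -0.50 and UPF2, a core NMD factor, at -0.41 (edgeR adjusted p = 0.0002786 and 0.0002437). Of 15 regulators of 5′TOP translation and mTORC1 signalling, 2 rose and 2 fell, which is 26.7% and the same share as over all genes tested, with a median of 0.07. EIF4EBP1 and EIF4EBP2, both repressors of cap-dependent translation, had log2 fold changes of 0.49 and -0.65 (edgeR adjusted p = 0.0001957 and 1.509e-07). RPS6KB1, the S6 kinase, rose by 0.20, a call lost in 9 of 17 alternative fits, among them the replicate block (adjusted p = 0.07782), total counts (0.08387) and the fits without DOX-negative replicate 1 or 3 or DOX-positive replicate 2 or 3 (up to 0.1233). TSC1, an inhibitor of mTORC1, had a log2 fold change of -0.29, while LARP1, which binds 5′TOP starts, stood at -0.07 and did not pass (edgeR adjusted p = 0.425).

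**Figure D5:**
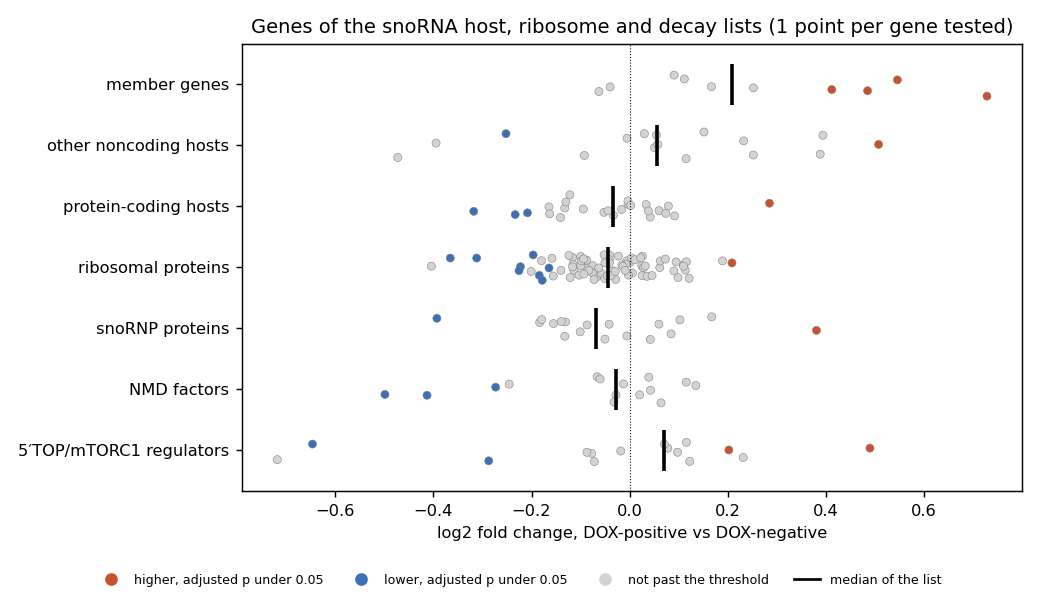
Log2 fold change with DOX of every gene tested in 7 lists (1 point per gene, black line for the median of the list), coloured by the edgeR call. The 10 member genes have a median of 0.21, and the medians of the other lists lie between -0.07 and 0.07.

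The 5 genes whose log2 CPM followed the log2 summed CPM of the 10 hosts most closely were RUNDC3A-AS1, SCAF11, VPS36, SLC44A1 and MR1, with Pearson r of 0.9984, 0.9963, 0.996, 0.9948 and 0.9944 over the 6 libraries, among 12353 genes compared. With so few libraries, in 2 groups, such values are a description of these libraries. They share a high value in DOX-positive replicate 2: RUNDC3A-AS1, an antisense transcript, had 11.944, 11.148 and 10.846 CPM without DOX and 16.777, 26.067 and 16.808 CPM with DOX.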

How the data were processed

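Poly(A)-selected stranded libraries (TruSeq Stranded mRNA) were prepared by the authors from triplicate cell cultures, and p-values measure the spread between these samples. Groups and replicate numbers came from the sample titles. The table columns abbreviate the resistant line differently from the titles and were matched by DOX state and number. Per the labels, reads were aligned with STAR to GRCh38/hg38; versions, the annotation, the counting step and its use of strand are not given in the sources used here. The authors deposited whole-number read counts for 28008 genes, 1 column per library, and TPM values for 25546 genes, scaled per library.

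Counts were tested in R 4.3.3 with edgeR 4.0.16 (filterByExpr, TMM, glmQLFit and glmQLFTest, two-sided, group only; 14292 genes tested), with Benjamini-Hochberg adjustment over all genes tested and a threshold of 0.05. The SE was taken as |log2 fold change| over the root of the F statistic. The 95% intervals used this SE with a normal quantile, which makes them somewhat narrower than the F test implies. The fit was tested on simulated data. Libraries of the same group differed beyond sampling noise, and each counted as 1 replicate. log2 TPM values were tested with limma 3.58.1. Alternatives were leaving out the filter or asking for 10 counts in all libraries, RLE factors or library totals as scaling, DESeq2 1.42.0, a replicate block, thinning, TPM with pseudocounts of 1 and 0.1, rescaled TPM, a GC and length correction, and leaving out each library. Named genes were the hosts, MUC1, their snoRNAs and neighbours, and up to 2 rises and 2 falls per list past the threshold. The members and lists were chosen with earlier results of these data known. Some genes were left out of the report.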

Additional observations from a re-analysis of the deposited data

How the results depend on the processing

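The 4 calls among the hosts were the same number under DESeq2, total counts, RLE factors, both filter settings, thinning, and the GC and length correction, 3 with rescaled TPM, and between 3 and 5 when a library was left out. No host passed a log2 change of at least 1 (368 genes did). Replicate numbers did not pair the libraries (correlations of deviations -0.0189, -0.095 and -0.0273); a replicate block kept 4 host calls and 3158 genes, with 4 ribosomal proteins called in place of 9.

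On log2(TPM + 1) and log2(TPM + 0.1) the median of all genes shifted by -0.32 and -0.38, 443 and 408 genes passed (6.77% and 7.11% of them higher), and 0 passed among the hosts, other noncoding hosts, protein-coding hosts, ribosomal proteins, snoRNP proteins and NMD factors, and 1 among 5′TOP and mTORC1 regulators. Signs reversed there for SNHG5 (-0.22 and -0.22), SNHG6 (-0.30 and -0.30), SNHG16 (-0.28 and -0.28), EPB41L4A-AS1 (-0.12 and -0.13), SLC3A2 (-0.33 and -0.34), EPB41L4A (-0.20 and -0.25), RPS6KB1 (-0.18 and -0.19), RPL15 (-0.19 and -0.19), HSPA9 (-0.11 and -0.11) and ZNHIT6 (-0.015 and -0.013). Total counts, where 39.3% of calls were higher, and the GC and length correction called 14 ribosomal proteins each, rescaled TPM 5, and leaving out a library 4 to 11. The GC and length correction called 7 of the 5′TOP and mTORC1 regulators. Other noncoding hosts had 1 call after thinning and 1 to 2 without a library, and protein-coding hosts 2 to 5. SNHG12 reversed after thinning (0.0229). With a library left out, the log2 fold change of SNHG12 ran from -0.1229 to 0.1299, of SNHG7 from -0.0987 to 0.00042, of MCMDC2 from -0.3408 to 0.0188 and of EPB41L4A from -0.0755 to 0.289, each crossing 0. SNORD50B did not pass with DESeq2 (adjusted p = 0.103), the replicate block (0.05534) or the GC and length correction (0.06829), nor SNORD80 after thinning (0.1063). The tract count was 5 within 10 bases of the start, 2 with the C exactly at the start and 6 with GENCODE 29 transcript starts. The last was chosen after seeing the data and has no share over all genes beside it. The causes were not tested. Alternatives for the GAS5 snoRNA sum, also added later, gave ratios between 0.5895 and 0.6647.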
